A study of Mus musculus with 2 samples.

Results

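The Polycomb and DNA methylation enzymes described here are 10 genes: Ezh1, Ezh2, Eed and Suz12 of Polycomb repressive complex 2, the DNA methyltransferase genes Dnmt1 and Dnmt3a with the Dnmt1 partner Uhrf1, and the methylcytosine oxidase genes Tet1, Tet2 and Tet3. They were taken by gene symbol from the 34745 gene rows of the deposited tables, and each had 1 row. The list was chosen with earlier results of these data known. The RNA came from regulatory T (Treg) cells, which express Foxp3 and hold immune responses in check. Spleens of C57BL/6 mice at 2 weeks of age were sorted for CD4+ cells positive for the YFP reporter of Foxp3. The study made 1 library from poh1fl/fl Foxp3Cre+ mice, called the POH1 knockout library, and 1 library from poh1+/+ Foxp3Cre+ mice, called the wild-type library. Cre is thus present in both groups and is driven from Foxp3. Deletion in other cells was not measured. The labels do not say whether a library pools several mice. With 1 library per genotype there is no replicate spread, no test and no p-value. Each range in parentheses is a 95% interval for counting error and says nothing of the spread between mice.

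Polycomb repressive complex 2 places a repressive methyl mark on histone H3. EZH2 or EZH1 is its catalytic subunit, and EED and SUZ12 are needed for its stability and activity. EZH2 is known as the form of dividing cells and EZH1 as the form of resting cells. DNMT1 copies CpG methylation onto the new strand after replication, guided by UHRF1, which binds hemimethylated DNA. DNMT3A sets methylation anew, and the TET enzymes oxidise methylcytosine as a step towards its removal. In Treg cells TET2 and TET3 are known to keep enhancers of Foxp3 demethylated, and EZH2 is known to be induced by activation.

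The gene counts summed to 14544212 in the POH1 knockout library and 18124611 in the wild-type library. Psmd14, which encodes POH1, had 463 counts, or 31.8 CPM, in the knockout library and 1619 counts, or 89.4 CPM, in the wild-type library, a 2.81-fold lower level (2.53 to 3.12). CPM are counts divided by the scaled total of their library. Both libraries carried the defining Treg and CD4 T cell transcripts. Foxp3 was at 1073 CPM in the knockout library and 671 CPM in the wild-type library, and Cd4 at 724 CPM in the knockout library and 688 CPM in the wild-type library. Of the 6 Treg and CD4 T cell markers, 2 were higher and 2 lower beyond 1.5-fold, with a summed level of 4864 CPM in the knockout library and 4612 CPM in the wild-type library. In bulk RNA, fewer cells of a type and less RNA per cell cannot be told apart.

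Dnmt1, Uhrf1 and Ezh2 were lower in the knockout library, each by less than 2-fold. The structural subunits Eed and Suz12 and the alternative catalytic gene Ezh1 were close to their wild-type levels, while Dnmt3a, Tet2 and Tet3 were higher by less than 1.5-fold. All 10 passed the filter of 1 CPM in at least 1 library, as did 13464 gene rows in all. A gene was called where its counting interval lay wholly beyond 2-fold, and by that rule 0 of the 10 were called, against 11.0% of the tested genes. With intervals wholly beyond 1.5-fold, 3 of the 10 were lower, against 12.3% of the tested genes, and 0 were higher, against 9.58%, with 21.9% of tested genes called in either direction. An interval wholly on 1 side of a ratio of 1 was a weak criterion that 69.6% of tested genes met. It was met by 8 of the 10, with 5 lower (35.3% of tested genes) and 3 higher (34.3%). Over the 10 genes the log2 ratio, knockout over wild type, had a median of -0.11, and over all tested genes one of -0.01.

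**Figure D1:**
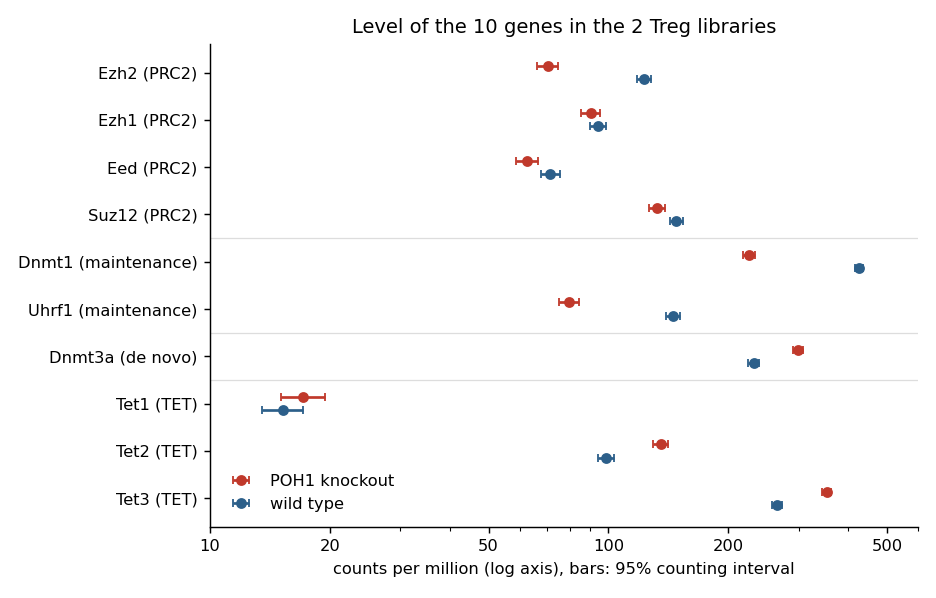
Level of each of the 10 genes, in CPM on a log axis, in the POH1 knockout library (red) and the wild-type library (blue). Points are single libraries and bars are 95% counting intervals. Dnmt1, Uhrf1 and Ezh2 lie well to the left in the knockout library, Dnmt3a, Tet2 and Tet3 somewhat to the right, and the intervals of Ezh1 and of Tet1 overlap between libraries.

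Promoter sequences are shown for the 3 genes lower beyond 1.5-fold, for Suz12, which also held the letters searched for, and for Ezh1, the counterpart of Ezh2. E2F factors, which switch on genes for DNA replication, recognise the letters TTTCCCGC, TTTGGCGC, TTTCGCGC or TTTGCCGC, and these were searched on both strands, with no overlap between the matches in the 10 genes. Each of the 10 genes had a RefSeq promoter window (GRCm38.p6), 250 bases before to 50 after an annotated start, with 15 windows in all. The letters occurred in 4 of the 10 genes, Uhrf1, Dnmt1, Ezh2 and Suz12, and in 704 of 27025 genes with a window (2.605%). Among tested genes, which include all 10, they occurred in 452 of 9528 with a window (4.74%). They occurred in 8 of 18 cell cycle genes with a window. Among tested genes with a window, they occurred in 5.69% of 1177 genes lower beyond 1.5-fold, in 2.96% of 879 higher ones and in 4.80% of the 7472 others. Each of the searched letter strings holds a CG. The 4 windows with a match held 31 to 41 CG, against a median of 7 over all windows. The shares above are not matched for CG content. A match describes letters in a window, not a bound site. The sequences below run 5′ to 3′ on the strand of the gene, with the matched letters in capitals. For Uhrf1 and Ezh1 they are the 250 bases before a start (the downstream one of Uhrf1's 2 starts), and for the others 30 bases around a match.
Uhrf1, chr17:56304063-56304312, plus strand: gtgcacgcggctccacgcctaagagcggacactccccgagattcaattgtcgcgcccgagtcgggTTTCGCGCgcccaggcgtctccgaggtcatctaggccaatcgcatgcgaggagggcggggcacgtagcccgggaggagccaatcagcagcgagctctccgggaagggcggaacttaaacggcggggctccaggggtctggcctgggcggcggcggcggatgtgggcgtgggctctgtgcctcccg
Dnmt1, chr9:20952824-20952853, minus strand: ggtttccgcgcGCGCGAAAaagccggggtc
Dnmt1, chr9:20952574-20952603, minus strand: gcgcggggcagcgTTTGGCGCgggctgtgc
Ezh2, chr6:47595009-47595038, minus strand: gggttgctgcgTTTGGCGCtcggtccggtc
Suz12, chr11:79992876-79992905, plus strand: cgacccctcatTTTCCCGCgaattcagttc
Ezh1, chr11:101226464-101226713, minus strand: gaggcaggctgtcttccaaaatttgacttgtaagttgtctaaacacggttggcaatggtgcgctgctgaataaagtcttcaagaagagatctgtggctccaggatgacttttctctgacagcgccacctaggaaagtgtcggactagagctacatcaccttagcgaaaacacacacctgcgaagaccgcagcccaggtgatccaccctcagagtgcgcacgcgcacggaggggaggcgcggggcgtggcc
Ezh1, whose level differed little, had no match in its single window, which says only that these letters are not in it. Both Dnmt1 matches and the Ezh2 match lie within annotated exons of their own gene. The other windows of Dnmt1 and Uhrf1 held no match, nor did any window of Eed, Dnmt3a, Tet1, Tet2 or Tet3.

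Of the Polycomb genes, Ezh2, the catalytic subunit of dividing cells, had 1025 counts, or 70.5 CPM, in the knockout library and 2225 counts, or 122.8 CPM, in the wild-type library. It was 1.74-fold lower (1.62 to 1.88), and 14.8% of tested genes had a ratio as low. Ezh1 had 1313 counts, or 90.3 CPM, in the knockout library and 1708 counts, or 94.3 CPM, in the wild-type library. Its ratio of 0.957 (0.890 to 1.03) did not exclude equal levels.

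Per length, Ezh2 stood at 0.961 times the FPKM (fragments scaled by gene length and library size) of Ezh1 in the knockout library (0.885 to 1.04) and at 1.60 times in the wild-type library (1.51 to 1.71). Between the libraries the balance was lower by a factor of 1.67 (1.503 to 1.85), a value that does not depend on scaling between libraries or on gene length. Ezh2 thus made up 49.0% of the summed FPKM of both catalytic genes in the knockout library and 61.6% in the wild-type library. With union exon lengths of GENCODE M21 instead, these shares were 46.5% in the knockout library and 59.2% in the wild-type library. The sum of both genes' counts was 1.35-fold lower (1.28 to 1.42).

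The scaffold subunits moved less. Eed, which binds the mark that the complex has made, had 909 counts, or 62.5 CPM, in the knockout library and 1296 counts, or 71.5 CPM, in the wild-type library, a ratio of 0.874 (0.802 to 0.952). Suz12, which holds the catalytic subunit to the rest of the complex, had 1924 counts, or 132.2 CPM, in the knockout library and 2684 counts, or 148.1 CPM, in the wild-type library, a ratio of 0.893 (0.842 to 0.947). Both lay below wild type by more than counting error and far inside 1.5-fold. Suz12 relative to Eed was the same in both libraries within counting error, with a ratio of the libraries of 1.02 (0.921 to 1.13), whereas Ezh2 relative to Suz12 was lower by a factor of 1.56 (1.41 to 1.71). Summed over Ezh1, Ezh2, Eed and Suz12, the counts were 1.23-fold lower (1.19 to 1.27).

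The maintenance methylation pair was lower to a like extent. Dnmt1 had 3279 counts, or 225.4 CPM, in the knockout library and 7709 counts, or 425.5 CPM, in the wild-type library, 1.89-fold lower (1.81 to 1.97). This was the lowest ratio of the 10, and 12.8% of tested genes had a ratio as low. Uhrf1 had 1158 counts, or 79.6 CPM, in the knockout library and 2630 counts, or 145.1 CPM, in the wild-type library, 1.82-fold lower (1.70 to 1.96). Uhrf1 stood at 0.425 times the FPKM of Dnmt1 in the knockout library and 0.410 times in the wild-type library, and the ratio of these values, 1.04 (0.954 to 1.12), did not exclude an equal balance. The Uhrf1 paralog Uhrf2 was 1.33-fold lower (1.24 to 1.43), so that Uhrf1 relative to Uhrf2 was lower by a factor of 1.37 (1.24 to 1.51).

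Dnmt3a, the de novo methyltransferase, had 4345 counts, or 298.7 CPM, in the knockout library and 4194 counts, or 231.5 CPM, in the wild-type library, 1.29-fold higher (1.24 to 1.35). Its interval lay above 1 and inside 1.5-fold, and 73.9% of tested genes had a ratio as low. Dnmt1 stood at 3.46 times the FPKM of Dnmt3a in the knockout library (3.30 to 3.62) and at 8.42 times in the wild-type library (8.11 to 8.74). These values depend on the gene lengths behind FPKM. With union exon lengths of GENCODE M21 instead, they were 1.70 in the knockout library and 4.15 in the wild-type library. With either length, the balance between maintenance and de novo enzyme was lower by a factor of 2.44 (2.30 to 2.58), the largest shift among the balances computed between members of one family. Dnmt3b, the other de novo enzyme, had 358 counts in the knockout library and 370 in the wild-type library, a ratio of 1.21 (1.04 to 1.40). Dnmt3a relative to Dnmt3b differed by a factor of 1.07 (0.918 to 1.25), which did not exclude an equal balance.

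Of the oxidases, Tet3 had 5135 counts, or 353 CPM, in the knockout library and 4792 counts, or 264.5 CPM, in the wild-type library, 1.33-fold higher (1.28 to 1.39). Tet2 had 1969 counts, or 135.3 CPM, in the knockout library and 1785 counts, or 98.5 CPM, in the wild-type library, 1.37-fold higher (1.29 to 1.47), the highest ratio of the 10. Tet1, the oxidase best known from embryonic stem cells, was scarce, with 249 counts, or 17.1 CPM, in the knockout library and 276 counts, or 15.2 CPM, in the wild-type library. Its ratio of 1.12 (0.943 to 1.34) included equal levels, and its wide interval reflects the low count.

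The make-up of the TET family was nearly the same in both libraries while its sum was higher. Tet3 made up 78.4% of the summed TET FPKM in each library, Tet2 19.1% in the knockout library and 18.6% in the wild-type library, and Tet1 2.51% in the knockout library and 2.98% in the wild-type library. With union exon lengths, Tet3 made up 69.8% in the knockout library and 69.9% in the wild-type library. Tet2 then made up 26.5% in the knockout library and 25.8% in the wild-type library. Tet3 relative to Tet2 differed by a factor of 0.971 (0.900 to 1.05), which did not exclude an equal balance. Summed counts of the 3 genes came to 505 CPM in the knockout library and 378 CPM in the wild-type library, 1.34-fold higher (1.29 to 1.38).

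**Figure D2:**
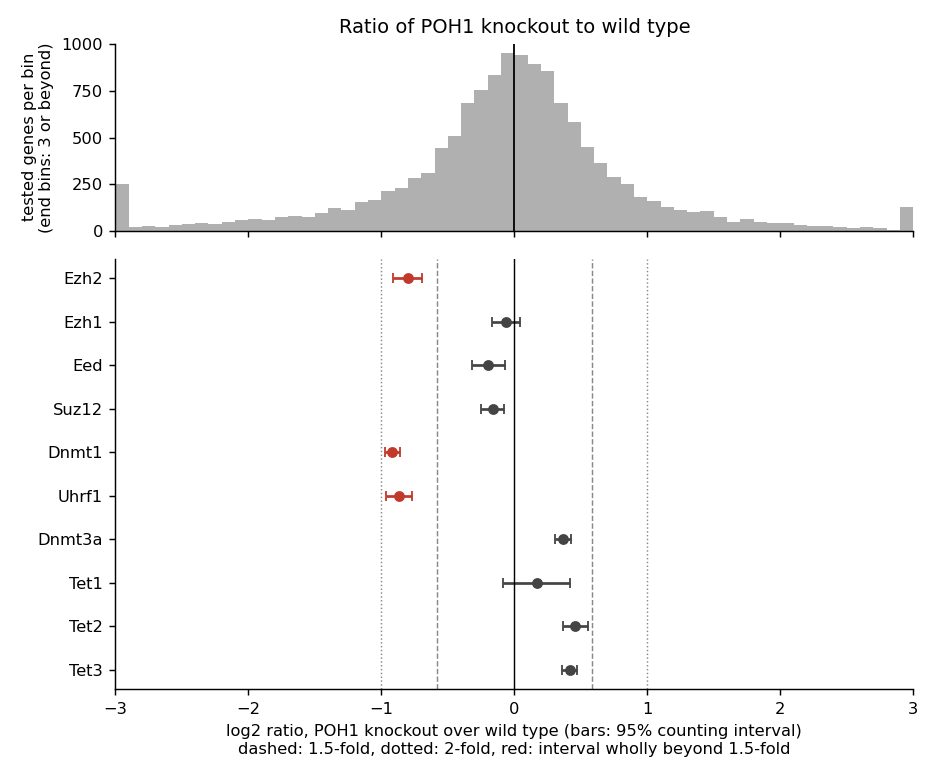
The upper panel is a histogram of log2 ratios of POH1 knockout to wild type over the 13464 tested genes, and the lower panel gives the 10 genes with 95% counting intervals. Dnmt1, Uhrf1 and Ezh2 (red) lie between the 1.5-fold (dashed) and 2-fold (dotted) lines on the lower side, and the other 7 lie within the 1.5-fold lines.

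Per length, Dnmt1 was the most abundant of the 10 in both libraries, at 35.3 FPKM in the knockout library and 66.7 FPKM in the wild-type library, and Tet1 the least, at 0.592 FPKM in the knockout library and 0.527 FPKM in the wild-type library. Ezh2 ranked 8 of 10 by FPKM in the knockout library and 6 of 10 in the wild-type library. Tet3 ranked 3 in the knockout library and 5 in the wild-type library, and Uhrf1 ranked 5 in the knockout library and 3 in the wild-type library. The gene lengths behind the deposited FPKM values differed from union exon lengths in GENCODE M21 by factors of 0.658 to 1.87, and with union exon lengths Ezh2 ranked 8 in the knockout library and 5 in the wild-type library, Tet3 3 in the knockout library and 6 in the wild-type library, and Uhrf1 4 in the knockout library and 2 in the wild-type library. Orders between genes depend on that length, while ratios between libraries do not.

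**Figure D3:**
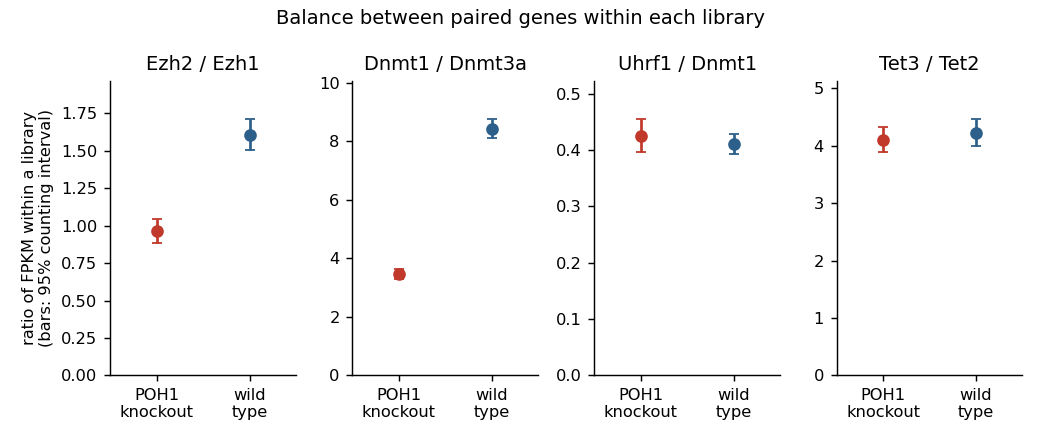
Ratio of FPKM between 2 genes within each library, with 95% counting intervals, in the POH1 knockout library (red, left) and the wild-type library (blue, right). Ezh2 over Ezh1 was 0.961 in the knockout library and 1.60 in the wild-type library and Dnmt1 over Dnmt3a was 3.46 in the knockout library and 8.42 in the wild-type library, while the intervals of Uhrf1 over Dnmt1 and of Tet3 over Tet2 overlap. The values within a library depend on the gene lengths behind FPKM, while the ratio between libraries does not.

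As a list, cell cycle genes had a lower median than the 10 genes. Of 20 genes of S phase and mitosis, 15 were lower beyond 1.5-fold, against 12.3% of tested genes, and 0 higher, against 9.58%. The median log2 ratio of the 20 genes was -1.19. Their levels were 1.14- to 4.83-fold lower, a range that holds the values of Dnmt1, Uhrf1 and Ezh2, and the 6 Mcm genes of the replicative helicase were 1.503- to 2.44-fold lower. Mki67, a marker of cycling cells, was at 344 CPM in the knockout library and 1125 CPM in the wild-type library, 3.27-fold lower (3.17 to 3.37). Relative to Mki67, Ezh2 was 1.87-fold higher in the knockout library (1.73 to 2.03), Uhrf1 1.79-fold (1.66 to 1.93) and Dnmt1 1.73-fold (1.64 to 1.82). Pcna, named for comparison and not by the naming rule, was itself 1.59-fold lower (1.52 to 1.67). Relative to Pcna, Ezh2, Uhrf1 and Dnmt1 went the other way. The ratios, knockout over wild type, were 0.915 for Ezh2 (0.837 to 0.999), 0.874 for Uhrf1 (0.804 to 0.951) and 0.844 for Dnmt1 (0.794 to 0.899). The direction thus depended on the reference gene.

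Markers of other cells also differed between the libraries. They were called beyond 1.5-fold, where 12.3% of tested genes were lower and 9.58% higher. All 5 B cell markers were lower beyond 1.5-fold, and their summed level was 28.3 CPM in the knockout library and 110 CPM in the wild-type library, with none at 0. Of 6 erythroid markers, 5 were lower, with sums of 150 CPM in the knockout library and 252 CPM in the wild-type library. Tfrc, the 1 not called, made up most of these sums, at 134 CPM in the knockout library and 196 CPM in the wild-type library. Both CD8 T cell markers were higher, with sums of 47.4 CPM in the knockout library and 18.8 CPM in the wild-type library. Of 4 dendritic cell markers, 3 were lower, with sums of 7.29 CPM in the knockout library and 17.5 CPM in the wild-type library, and Clec9a had 0 counts in the knockout library. Of 3 neutrophil markers that passed the filter, 2 were lower, with sums of 3.57 CPM in the knockout library and 10.4 CPM in the wild-type library, and S100a8 and Camp had 0 counts in the knockout library. These are scarce transcripts. Of 3 NK cell markers that passed the filter, Eomes alone was higher, with sums of 10.04 CPM in the knockout library and 4.08 CPM in the wild-type library, and Ncr1 had 0 counts in the knockout library. Of 5 myeloid markers, 1 was higher, with sums of 162 CPM in the knockout library and 117 CPM in the wild-type library. Of 3 stromal and endothelial markers that passed the filter, 2 were lower, with sums of 189 CPM in the knockout library and 173 CPM in the wild-type library, and Col3a1 had 0 counts in both. Pecam1 made up nearly all of these sums, at 189 CPM in the knockout library and 170 CPM in the wild-type library. The lower markers were scarce, Col1a1 with 3 counts in the knockout library and 31 in the wild-type library, and Cdh5 with 3 and 32. Of 3 plasma cell markers 0 were called beyond 1.5-fold, with sums of 22.1 CPM in the knockout library and 15.1 CPM in the wild-type library. The part of these cells, and of the share of cycling cells, in the ratios of the 10 genes was not tested.

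Of the wider Polycomb and DNA methylation machinery, 75 of 80 genes in 7 lists passed the filter. Beyond 2-fold, 2 were higher and 5 lower, and beyond 1.5-fold 6 were higher and 11 lower, with a median log2 ratio of -0.05. All tested genes gave 4.34% higher and 6.63% lower beyond 2-fold, and 9.58% higher and 12.3% lower beyond 1.5-fold. These shares also stand beside the counts of each list below.

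Among 11 genes listed here as accessory to Polycomb repressive complex 2, Rbbp4 included, 10 passed the filter. Beyond 1.5-fold 2 were higher and 3 lower, with a median log2 ratio of -0.21. The Polycomb-like genes, whose proteins help the complex to find its target sites, were split. Phf1 was at 231 CPM in the knockout library and 137 CPM in the wild-type library, 1.68-fold higher (1.60 to 1.77), and Mtf2 at 94.4 CPM in the knockout library and 56.2 CPM in the wild-type library, 1.68-fold higher (1.55 to 1.82). Their paralog Phf19 was at 15.7 CPM in the knockout library and 29.6 CPM in the wild-type library, 1.88-fold lower (1.61 to 2.21).

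Other genes of that list were split as well. Aebp2 was 1.66-fold lower (1.57 to 1.76) and Epop, listed under an older symbol, 2.92-fold lower (2.33 to 3.69), with 99 counts in the knockout library and 360 in the wild-type library. Jarid2, which helps to recruit the complex, had a ratio of 1.33 (1.25 to 1.42). The histone chaperone gene Rbbp4, with the most wild-type counts of the list, had a ratio of 0.906 (0.865 to 0.950).

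Of 21 genes of Polycomb repressive complex 1, which ubiquitinates histone H2A, 1 was higher and 1 lower beyond 1.5-fold, with a median log2 ratio of 0.07. Scmh1 was 2.71-fold higher (2.27 to 3.24). Pcgf2, which encodes the ring finger protein MEL18, had 28 counts in the knockout library and 184 in the wild-type library, 5.28-fold lower (3.53 to 8.16). Its paralog Bmi1, named for comparison and not by the naming rule, had a ratio of 0.933 (0.864 to 1.01). The chromobox gene Cbx7, whose protein reads the mark of complex 2, was at 415 CPM in the knockout library and 271 CPM in the wild-type library, a ratio of 1.53 (1.48 to 1.59).

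None of the 5 genes that remove Polycomb marks and passed the filter had an interval wholly beyond 1.5-fold. The demethylase gene Kdm6b had a ratio of 0.657 (0.626 to 0.690) and its relative Kdm6a 1.44 (1.36 to 1.53). Of 6 further DNA methylation genes that passed the filter, 2 were lower beyond 1.5-fold and 0 higher. They were Hells, a remodeller that opens chromatin for methylation, at 51.1 CPM in the knockout library and 117 CPM in the wild-type library, 2.29-fold lower (2.10 to 2.49), and its activator Cdca7, 3.15-fold lower (2.76 to 3.60). Usp7, a deubiquitinase that binds DNMT1 and UHRF1, had a ratio of 1.08 (1.04 to 1.12).

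Readers of methylated DNA showed 2 of 8 genes higher beyond 1.5-fold and 0 lower. Zbtb4 was 2.11-fold higher (1.95 to 2.27), while Mbd2, with the most wild-type counts of the list, had a ratio of 0.748 (0.716 to 0.782). In the list of active demethylation and repair, 1 of 11 was higher and 2 lower. The stress-inducible Gadd45 genes went opposite ways, Gadd45g being 3.65-fold higher (3.23 to 4.13) and Gadd45b 3.01-fold lower (2.71 to 3.35). Parp1 was 1.70-fold lower (1.61 to 1.80).

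Of 14 genes that supply methyl groups or ketoglutarate, the TET cosubstrate, 3 were lower beyond 1.5-fold and 0 higher, with a median log2 ratio of -0.34. The folate cycle genes Shmt1 and Mthfd1 were 1.98-fold (1.71 to 2.29) and 1.95-fold lower (1.79 to 2.14), and Idh3a 1.66-fold lower (1.52 to 1.82).

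**Figure D4:**
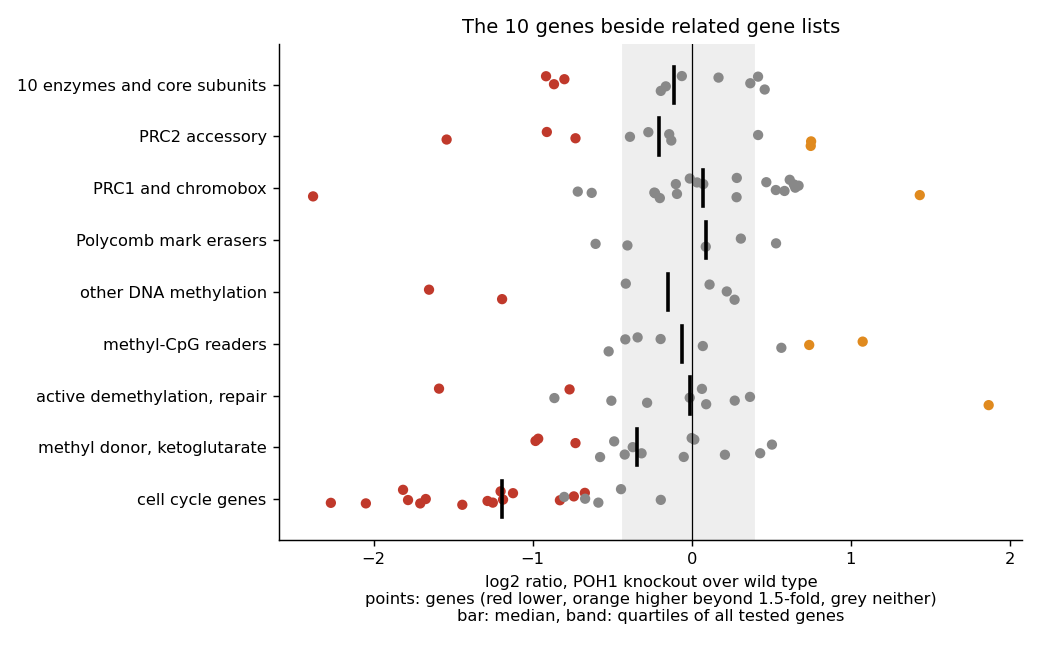
Log2 ratio of POH1 knockout to wild type for each tested gene of the 10 and of 8 related lists, with the list median as a black bar and the quartiles of all tested genes as a grey band. Red and orange points have intervals wholly beyond 1.5-fold on the lower and higher side. The cell cycle genes have a median of -1.19, and the medians of the other lists lie between -0.34 and 0.09.

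The 10 genes are protein-coding in GENCODE M21 (mm10). Ezh2 lies on chromosome 6 from 47530139 to 47595341, Ezh1 on chromosome 11 from 101191115 to 101226463, Dnmt1 on chromosome 9 from 20907209 to 20959888 and Uhrf1 on chromosome 17 from 56303321 to 56323486. The library kit did not mark strand, so reads of overlapping genes cannot be told apart. Exon overlap with another gene was 6.82% of the exon bases of Eed, 3.60% of Suz12, 2.61% of Ezh2, 0.799% of Dnmt3a, 0.255% of Tet2 and 0% of the other 5.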

How the data were processed

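Treg cells sorted from spleens of 2 genotypes were profiled by RNA sequencing, 1 library per genotype. Libraries were made with the Illumina TruSeq RNA v2 kit, per the labels' protocols. TopHat, HTSeq and the mm10 genome are named in the submitters' processing notes, without versions or an annotation. The authors deposited a raw read count and an FPKM value per gene, per the file headers. Counts were used for all ratios between libraries, and FPKM only to compare genes within a library.

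Counts were scaled with TMM factors (edgeR 4.0.16, R 4.3.3). Ratios have exact conditional-binomial 95% intervals, and balances between 2 genes have exact conditional odds-ratio intervals (scipy 1.17.1). The reads carry no molecular identifiers and may repeat a molecule, so every interval and limit reflects counting error alone. For log2 ratios 0.5 counts were added, scaled by library size. Tested genes reached 1 CPM in the knockout or the wild-type library. The self-test used simulated counts. A count of 0 allows up to 3 counts, which is 0.206 CPM in the knockout and 0.166 CPM in the wild-type library.

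The members and the 12 gene lists and 10 marker lists were chosen with earlier results of these data known. Named genes were all 10 members, and in each list up to 3 at each end, ranked by the interval end closest to equality, plus the gene with most counts. One result that this rule gives is not reported here. The alternatives were DESeq2 1.42.0 size factors, library totals, upper-quartile scaling, filters and 1.5-fold calls. All list symbols were matched, 2 by a RefSeq synonym. Python 3.11.15, pandas 2.3.3 and matplotlib 3.10.9 were used.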

Additional observations from a re-analysis of the deposited data

How the results depend on the processing

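No paired analysis was possible because each genotype has 1 library, which also leaves no replicate to leave out. Each of the 10 members' log2 ratios kept its sign and stayed within its counting interval under 3 other scalings, the FPKM ratio and no added count, and moved by at most 0.04. The fold that a call asks for decides the counts. Beyond 2-fold, 0 members were higher and 0 lower, 585 tested genes were higher and 892 lower, and 2 genes of the other lists were higher and 5 lower. Beyond 1.5-fold, 3 members were lower, 1290 tested genes were higher and 1659 lower, and 6 genes of the other lists were higher and 11 lower. With intervals on 1 side of a ratio of 1, an alternative chosen after seeing the data, 3 members were higher and 5 lower, 4619 tested genes were higher and 4748 lower, and 25 genes of the other lists were higher and 33 lower. Scaling and filter alternatives kept these summed counts within 1.5 times; among methyl-CpG readers alone, upper-quartile scaling called 1 gene higher beyond 2-fold, against 0. With union exon lengths, Ezh2 relative to Ezh1 was 0.870 in the knockout library and 1.45 in the wild-type library, and the ratio between libraries was unchanged by construction. Depth limits Tet1 most. Differences between mice cannot be assessed.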

Other observations

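Genes that Polycomb and DNA methylation are known to silence were counted as a description of the same libraries, with no test. The 39 Hox genes, classical Polycomb targets, summed to 14 counts in the POH1 knockout library and 39 counts in the wild-type library, with 35 genes at 0 in the knockout library and 29 in the wild-type library, and 0 reached 1 CPM in either library. Of 14 germline genes known to be silenced by DNA methylation, 10 had 0 counts in both libraries. Dazl, chosen after its values were seen, had 12 counts in the knockout library and 0 in the wild-type library, and the lower end of the counting interval of its ratio was 3.46. Brdt had 54 counts in the knockout library and 26 in the wild-type library, 2.59-fold higher (1.59 to 4.30). Tdrkh had 79 counts in the knockout library and 139 in the wild-type library, a ratio of 0.708 (0.530 to 0.940). The 14 genes summed to 147 counts in the knockout library and 165 in the wild-type library, a ratio of 1.11 (0.882 to 1.39).

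Of 10 loci known as Polycomb-regulated in T cells, 8 passed the filter, with 2 higher and 2 lower beyond 1.5-fold. Eomes, a factor of cytotoxic and memory T cells, had 122 counts in the knockout library and 28 in the wild-type library, 5.43-fold higher (3.58 to 8.50), and Il13 had 22 counts in the knockout library and 6 in the wild-type library. Eomes is also the 1 NK cell marker of 3 tested that was higher, and both CD8 T cell markers were higher as well. Which cells the Eomes counts came from was not tested. Prdm1, which encodes the effector factor BLIMP1, was 3.33-fold lower (2.96 to 3.76), and Cdkn2a, the cell cycle inhibitor locus, had 9 counts in the knockout library and 43 in the wild-type library. Among 6 Treg genes known to carry demethylated regions, Foxp3, Ikzf4 and Il2ra were 1.60-fold (1.56 to 1.64), 1.92-fold (1.80 to 2.05) and 1.55-fold higher (1.52 to 1.58), Ikzf2 and Ctla4 were 1.57-fold (1.53 to 1.61) and 1.59-fold lower (1.56 to 1.63), and Tnfrsf18 had a ratio of 0.987 (0.930 to 1.05). DNA methylation and histone marks were not measured.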
